A study of Mus musculus with 4 samples.

Results

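The Bex and Tceal genes are a cluster of small paralogous genes on the mouse X chromosome, and trimethylation of histone H3 at lysine 27 (H3K27me3) was described at 10 of them in female embryonic fibroblasts with and without SmcHD1. The members were taken by symbol from the deposited table of H3K27me3 enrichment per gene: Bex1, Bex2, Bex4, Ngfrap1, Tceal1, Tceal3, Tceal5, Tceal6, Tceal7 and Tceal8, which were 10 of 22691 genes listed and 10 of 952 on the X. All 10 had a value in both genotypes. They were proposed with the enrichment values of this table in view, so their values in the 2 genotypes are a description and no test is given.

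The series held 4 libraries of mouse embryonic fibroblasts taken at E13.5, a mid-gestation embryonic stage, from female C57BL6/J fetuses. Each genotype gave a ChIP library, made with the mouse monoclonal antibody CMA323, and an input library made without antibody. The genotypes were Smchd1 +/+, called WT here, and Smchd1 MD1/MD1, called MD1, whose cells the series' design calls deficient for SmcHD1. The number of fetuses behind each library is not given in the sources used here. With 1 library of each kind there was no replicate error, so the genotypes could not be tested against each other and the values compare these libraries.

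SmcHD1 is a noncanonical member of the SMC protein family that is concentrated on the inactive X chromosome of female cells. H3K27me3 is laid down by Polycomb repressive complex 2 and coats most of the inactive X, whereas silent genes on the active X can carry it as well. The Bex genes encode small, largely unstructured proteins that are abundant in brain, and the Tceal genes encode nuclear proteins named after the transcription elongation factor TFIIS, which helps stalled RNA polymerase II to resume. Both families lie together with the Armcx and Gprasp genes in one gene-rich stretch of the X. A value per gene averages over both X chromosomes and over all cells, so fewer cells with the mark and less mark per cell cannot be told apart.

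All values below are log2 enrichments, and a difference is MD1 minus WT, where 1 stands for a 2-fold higher enrichment in MD1. Over all 770 X genes with both values the median was 0.84 in WT and 1.40 in MD1, with a median difference of 0.55, whereas the median difference of 19836 autosomal genes was -0.27. Fibroblast marker genes carried little of the mark, with a median of -2.79 in WT and -3.35 in MD1 over 12 genes, against 0.11 and 0.15 over 6 neuronal markers and -0.28 and -0.51 over 6 macrophage markers. Smchd1 itself (chromosome 17) stood at -2.44 in WT and -3.47 in MD1, which is a chromatin value and does not check the genotype.

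H3K27me3 was higher in MD1 than in WT at 9 of the 10 Bex and Tceal genes, and it was at least 2-fold higher at 6: Bex1, Tceal3, Ngfrap1, Tceal5, Bex4 and Tceal8. No member was at least 2-fold lower. The median over the 10 genes was 1.06 in WT and 2.08 in MD1, and the median difference was 1.02 (quartiles 0.39 and 1.85). Of all X genes, 22.1% were at least 2-fold higher, 18.3% were at least 2-fold lower and 69.1% had a positive difference. Among autosomal genes 1.61% were at least 2-fold higher and 31% had a positive difference. The members are short, from 1393 to 3268 bp, and short X genes held more large differences: of 78 other X genes in that length range, 39.7% passed the limit upwards and 15.4% downwards, and their median difference was 0.73. Since the members were chosen on this contrast, nothing is read from these shares.

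The 4 Bex family genes included the largest difference of the cluster. Bex1 (mm9, X, 132748511 to 132750052, minus strand) encodes a small adaptor-like protein of neurons. It stood at 0.66 in WT and at 2.90 in MD1, differing by 2.24 or 4.72-fold. In WT it lay in the middle of the X genes, at percentile 41.2, and in MD1 near their top, at percentile 98.6. Ngfrap1 (X, 132804792 to 132806517, plus strand), now named Bex3, encodes a protein that binds the death domain of the p75 neurotrophin receptor. It was the member with the least H3K27me3 in WT, -0.15, and stood at 1.83 in MD1, differing by 1.98, and moved from percentile 13.2 to percentile 71.4 of X genes.

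Bex4 (X, 132673584 to 132674976, plus strand), the shortest member at 1393 bp, stood at 1.16 in WT and 2.19 in MD1, differing by 1.03, which only just passed the 2-fold limit. Bex2 (X, 132601104 to 132602775, minus strand), whose human counterpart is known to bind the transcription factor LMO2, behaved otherwise. It was the most enriched member in WT, 2.63, at percentile 99.7 of X genes, and stood at 2.78 in MD1, differing by 0.15. Bex2 was thus near the top of the X genes in both genotypes, whereas Ngfrap1 and Bex1 lay below the X median of 0.84 in WT. In WT the 4 Bex values lay between -0.15 and 2.63, and in MD1 between 1.83 and 2.90. They lay closer together in MD1, with a standard deviation over the 4 genes of 1.17 in WT and 0.50 in MD1. Over the 6 Tceal genes it went the other way, with 0.70 in WT and 0.82 in MD1. Each standard deviation rests on 1 value per gene, and no difference in spread was tested.

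The promoters of Bex1 and Bex4 are shown whole because they bear on how far the values of these genes are separate. In the RefSeq promoter table (build GRCm38.p6), which spans 250 bases before to 50 bases after each annotated start, they share an identical run of 271 bases. Bex2 and Ngfrap1 share one of 162 bases, and no other pair of members shared more than 14 bases in the first promoter listed for each gene. The capitals mark the word CACGTGA, described further on.
Bex1 (chrX:136215464-136215763, minus strand): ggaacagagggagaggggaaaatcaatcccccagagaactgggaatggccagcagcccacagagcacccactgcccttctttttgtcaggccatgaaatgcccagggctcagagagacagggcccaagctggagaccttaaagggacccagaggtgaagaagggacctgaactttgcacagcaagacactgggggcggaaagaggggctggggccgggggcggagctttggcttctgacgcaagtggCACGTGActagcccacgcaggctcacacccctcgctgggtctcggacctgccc
Bex4 (chrX:136138746-136139045, plus strand): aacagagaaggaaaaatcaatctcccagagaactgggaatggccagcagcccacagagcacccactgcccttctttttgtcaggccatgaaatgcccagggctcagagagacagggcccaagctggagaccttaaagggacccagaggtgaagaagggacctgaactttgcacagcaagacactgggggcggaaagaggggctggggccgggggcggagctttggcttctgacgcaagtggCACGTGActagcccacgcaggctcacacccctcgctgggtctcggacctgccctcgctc
The treatment of reads that map to more than 1 place is not given in the sources used here, so the values of Bex1 and Bex4, and of Bex2 and Ngfrap1, may share reads. Most of each identical run lies before the annotated start, and it is not stated whether bases there were counted for the gene. Whether the gene values share reads was not tested.

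Among the 6 Tceal genes, 3 were at least 2-fold higher in MD1. Tceal3 (X, 133200914 to 133202916, plus strand) had the highest MD1 value of all members, 3.08, from 0.97 in WT, differing by 2.11 or 4.33-fold, and moved from percentile 57.0 to percentile 99.6 of X genes. Tceal5 (X, 132735490 to 132738390, minus strand) stood at 1.46 in WT and 2.90 in MD1, differing by 1.44. Tceal8 (X, 132703523 to 132706790, minus strand), the longest member at 3268 bp, stood at 0.18 in WT and 1.20 in MD1, and its difference of 1.01 was the smallest that still passed the limit. Tceal3 and Tceal5 thus ended among the most enriched genes of the X, whereas Tceal8 stayed below the X median of 1.40 in MD1.

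The 3 other Tceal genes were within the 2-fold limit. Tceal1 (X, 133242604 to 133244405, plus strand), which encodes a nuclear phosphoprotein that modulates transcription, stood at 0.56 in WT and 1.17 in MD1, differing by 0.61, which was near the X median and the nearest to the limit from below. Tceal7 (X, 132758580 to 132760639, plus strand), whose human counterpart is known as a gene silenced in ovarian cancer, stood at 1.64 and 1.97, differing by 0.32. Tceal6 (X, 131743225 to 131745226, minus strand) was the one member that was lower in MD1, at 2.04 in WT and 1.82 in MD1, differing by -0.22. In WT it was the second most enriched member, and in MD1 it ranked 8 of 10. The 6 Tceal genes had a median difference of 0.81 and the 4 Bex genes one of 1.51, over ranges of -0.22 to 2.11 and 0.15 to 2.24 that overlapped.

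**Figure D1:**
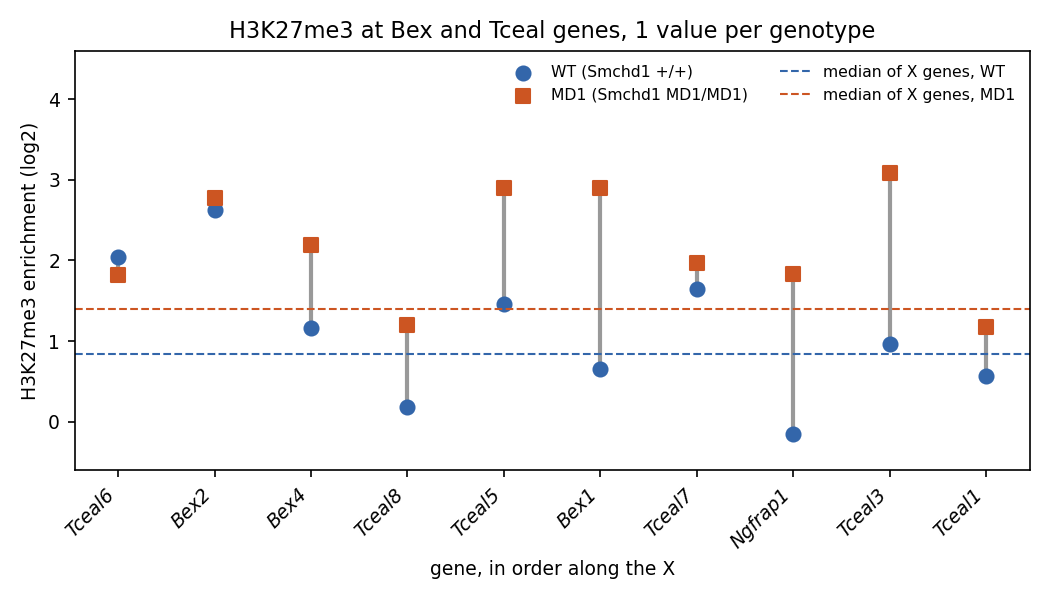
H3K27me3 enrichment (log2, vertical axis) of the 10 members in their order along the X, with 1 value for WT (circles) and 1 for MD1 (squares), joined by a grey line; dashed lines are the medians of X genes, 0.84 in WT and 1.40 in MD1. The longest lines are at Bex1, Tceal3 and Ngfrap1, and the square lies below the circle at Tceal6 alone.

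Ordered by level, the most enriched members in WT were Bex2, Tceal6, Tceal7 and Tceal5, and those in MD1 were Tceal3, Tceal5, Bex1 and Bex2. Tceal5 at 2.90 and Bex1 at 2.90 in MD1 were equal to the second decimal. Without replicates the spread of a single value is unknown, and neighbours in these orders cannot be told apart by a test. As a yardstick, autosomal genes of like level in the same length quartile had differences with a standard deviation between 0.52 and 0.66 for the 10 members. Over autosomal genes in the members' own, shorter length range, at any level, it was 1.08. It was 0.95 there once the median of genes of like level was subtracted. The 3 largest differences of the cluster were each over 1.9 after the median of the autosomal genes of like level and length quartile was subtracted: 2.10 at Bex1, 2.0 at Tceal3 and 1.94 at Ngfrap1. On that scale Bex4 stood at 0.90 and Tceal8 at 0.99, below the limit, so that 4 members passed it, where 19.1% of X genes did.

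**Figure D2:**
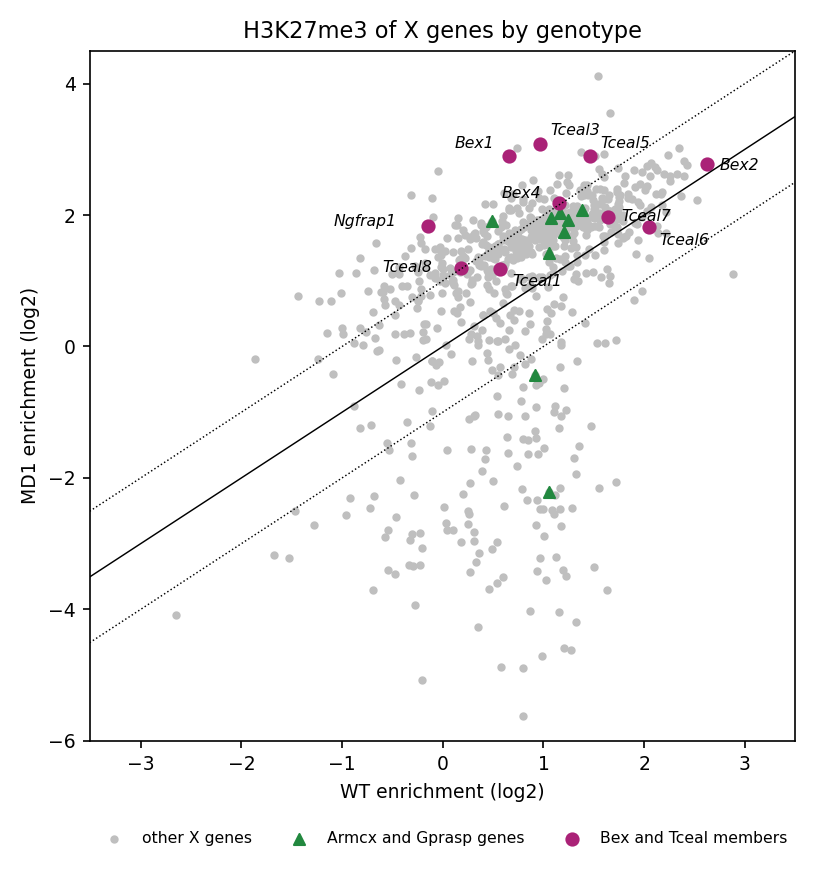
WT (horizontal) against MD1 (vertical) log2 enrichment of X genes, with 1 point per gene; the solid line marks equal values and the dotted lines 2-fold differences. Bex and Tceal members are labelled, with Tceal3 at 0.97 and 3.08, and the triangles are the Armcx and Gprasp genes, of which Armcx5 lies far below the line at 1.06 and -2.21.

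The whole numbers behind the values are known in part. For 99.98% of the WT values and 99.95% of the MD1 values, subtracting 1 constant per genotype left the log2 of a quotient of whole numbers (relative tolerance 1e-11), as ChIP reads divided by input reads would. A quotient gives its whole numbers in lowest terms only, and the reads behind it are not known. For Bex1 the quotient was 23 to 15 in WT and 61 to 8 in MD1. Tceal3 had 19 to 10 in WT and 26 to 3 in MD1, and Ngfrap1 had 7 to 8 and 51 to 14. Small terms also stood behind Bex2, at 6 to 1 in WT and 7 to 1 in MD1, and Tceal6, at 4 to 1 and 47 to 13. Bex4 had 13 to 6 and 14 to 3, and Tceal7 had 88 to 29 and 4 to 1. Tceal8, at 54 to 49 and 129 to 55, Tceal1, at 33 to 23 and 53 to 23, and Tceal5, at 75 to 28 and 145 to 19, were the 3 members with terms of 10 or more throughout.

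The promoters of the cluster shared short sequence words that the choice of the members did not use. All 10 members had at least 1 promoter in the RefSeq table, 14 promoters in all, with 5 to 18 CpG dinucleotides and a median of 8.5, against a median of 7 over 32851 mouse promoters. The word CACGTGA, which holds the E-box CACGTG, was found on either strand in 11 of the 14 promoters, those of 9 of the 10 genes. It was present in 3.77% of all promoters and in 4.55% of the other X promoters. The neighbouring Armcx and Gprasp genes, counted among the latter, had it in 3 of 8 promoters (37.5%). The word TGACG, the core of the site known for cyclic AMP response factors, was present in 13 of the 14 and in 20.8% of all promoters. The Armcx and Gprasp genes had TGACG in 5 of 8 promoters (62.5%). The words were picked after the promoters were read, so the shares describe them and test nothing.

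The 2 words were also found at a set distance. The arrangement TGACGNNNNNNNCACGTGA, where N is any base, was present in 12 of the 32851 promoters (0.0365%), and 8 of these 12 belonged to Tceal6, Bex4, Tceal8, Tceal5, Bex1 and Tceal3. The other 4 belonged to Armcx1 and Armcx6 of the neighbouring cluster and to the autosomal genes Ubap2 and Vps33a. For Tceal5 and Tceal3 the same site is counted in 2 overlapping promoters each. At Bex1 and Bex4 it lies in their identical run of 271 bases. With 9 bases between the words, TGACGNNNNNNNNNCACGTGA was present in 6 promoters (0.0183%). These were the promoters of the members Ngfrap1 and Tceal1, and of Armcx4, B230119M05Rik, Gm40744 and Rcbtb1. The stretches are shown because they carry what 9 of the 10 members have in common. In each, capitals mark CACGTGA and, where it stands 7 or 9 bases before it, TGACG. All are from build GRCm38.p6, 5′ to 3′ in the direction of the gene.
Tceal6 (chrX:135210683-135210725, minus strand): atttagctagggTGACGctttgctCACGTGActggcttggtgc
Bex4 (chrX:136138963-136139005, plus strand): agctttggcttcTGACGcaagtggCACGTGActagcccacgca
Tceal8 (chrX:136172216-136172258, minus strand): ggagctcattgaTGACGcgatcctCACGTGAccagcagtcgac
Tceal5 (chrX:136203881-136203923, minus strand): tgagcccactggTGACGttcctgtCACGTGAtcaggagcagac
Bex1 (chrX:136215498-136215540, minus strand): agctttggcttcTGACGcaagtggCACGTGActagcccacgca
Tceal7 (chrX:136223957-136223999, plus strand): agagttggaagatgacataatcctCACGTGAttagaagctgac
Ngfrap1 (chrX:136270256-136270298, plus strand): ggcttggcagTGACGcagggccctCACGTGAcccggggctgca
Tceal3 (chrX:136666354-136666396, plus strand): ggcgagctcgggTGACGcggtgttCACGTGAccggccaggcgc
Tceal1 (chrX:136707957-136707999, plus strand): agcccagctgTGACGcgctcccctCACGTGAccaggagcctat
In the first promoter listed that held it, CACGTGA began between 60 bases before and 28 bases after the annotated start. In 7 of the 9 stretches shown the word overlaps its own reverse complement (TCACGTGA), so it reads on both strands there. For Bex2 the word was not in this window. The arrangement was present at Tceal6, whose difference was -0.22, as at Bex1, whose difference was 2.24.

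**Figure D3:**
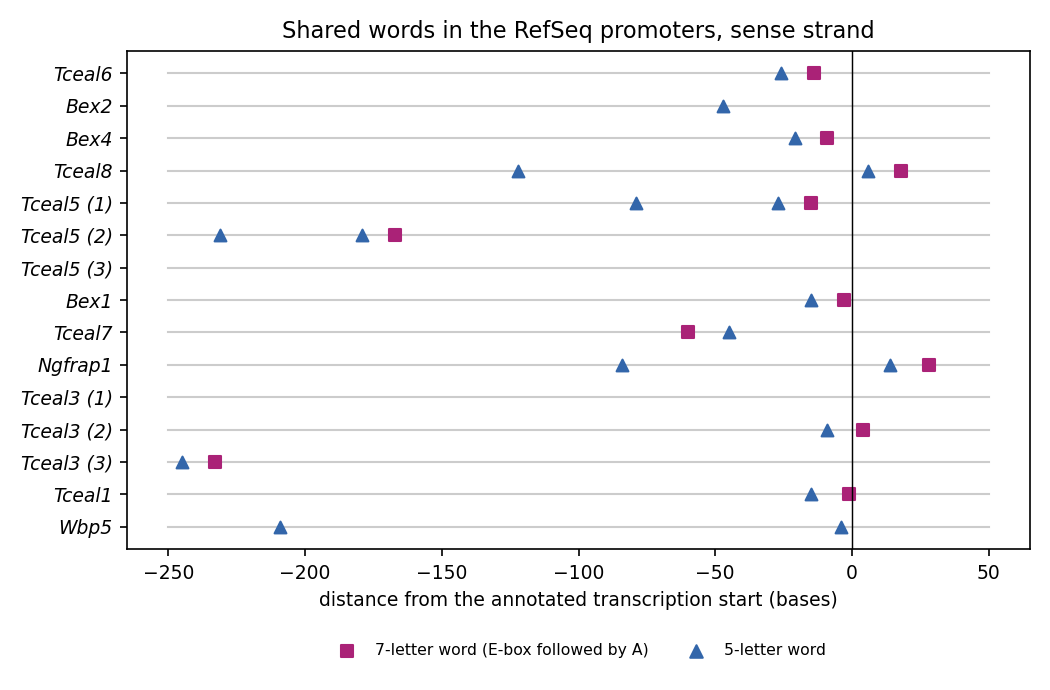
Positions of both words on the sense strand of each RefSeq promoter of the members and of Wbp5, in bases from the annotated transcription start; squares are the first letter of CACGTGA and triangles that of TGACG, and genes with several promoters have 1 line for each. In most lines with a square it stands just downstream of a triangle, as at Bex1, where the square begins 3 bases before the start; at Tceal7 the order is turned.

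The members were spread over 1501 kb of the X. Tceal6 lay apart, and the 9 others lay between 132601104 and 133244405, within 643.3 kb. In that stretch, from Bex2 to Tceal1, all 14 genes with values had a positive difference and 9 of them were at least 2-fold higher in MD1, 6 of these being members. The next gene on either side had a negative difference, Arxes1 (-0.08) before Bex2 and Morf4l2 (-3.27) after Tceal1. At Arxes1 the quotient was 5 to 1 in both genotypes, so its negative sign comes from the constants of the genotypes alone. The stretch was marked out by its values, so its counts describe it only.

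Between the first and the last member the table listed 18 further genes, 15 of them with values. Of these, 3 passed the limit upwards, 2 passed it downwards and 10 lay within it, where 22.1% of all X genes passed it upwards and 18.3% downwards. The median of the 15 went from 1.24 in WT to 1.82 in MD1, with a median difference of 0.68. The largest positive difference was at Wbp5, now named Tceal9 and hence a family gene outside the member list. It stood at -0.28 in WT and 1.23 in MD1, differing by 1.51. Its neighbours Tceal7 and Ngfrap1, which lie on either side of it, differed by 0.32 and 1.98. Of the genes nearest to the members, Nxf3, an mRNA export factor family gene 3.86 kb from Bex2, stood at 1.11 and 2.26, differing by 1.15. Kir3dl2 and Kir3dl1, killer cell receptor genes between Ngfrap1 and Tceal3, had differences of 1.25 and 0.90.

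From Bex2 towards Tceal6 the other genes had differences below the 2-fold limit or negative ones. Arxes1 and Arxes2, the adipocyte-related genes next to Bex2, stood at 2.37 and 1.04 in WT and at 2.29 and 0.91 in MD1. Both are as short as the members, at 1580 and 1540 bp. Arxes2 was slightly lower in MD1, whereas Arxes1 differed only by the constants of the genotypes. Differences at Nxf7 (0.74), Gprasp2 (0.69), Bhlhb9 (0.69), Prame (0.68), 1700008I05Rik (0.37) and the thymosin gene Tmsb15a (0.19) were all positive and within the limit, as was that of 5730412P04Rik (0.36) between Bex2 and Bex4. Armcx5 went the other way, from 1.06 in WT to -2.21 in MD1, differing by -3.27. Gprasp1, which shares its start with Armcx5 in the table and overlaps it, stood at 0.91 and -0.43. Their values are not independent, since Armcx5 lies within the interval listed for Gprasp1.

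On both sides of the cluster, H3K27me3 was much lower in MD1 at single genes. The 3 lowest of the 32 X genes within 1 Mb were Rpl36a (-4.15), encoding a ribosomal protein, Morf4l2 (-3.27), encoding a chromatin protein of the MRG family, and Timm8a1 (-2.99), encoding a mitochondrial import chaperone. Morf4l2 lay 23.1 kb from Tceal1 and stood at 0.31 in WT, near the 0.56 of Tceal1, and at -2.95 in MD1, where Tceal1 stood at 1.17. The 3 highest of these flanking genes were Armcx4 (1.42), Armcx6 (0.87) and Armcx3 (0.86). The median difference of the 32 genes was 0.40, and 1 was at least 2-fold higher, against 4 that were at least 2-fold lower.

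**Figure D4:**
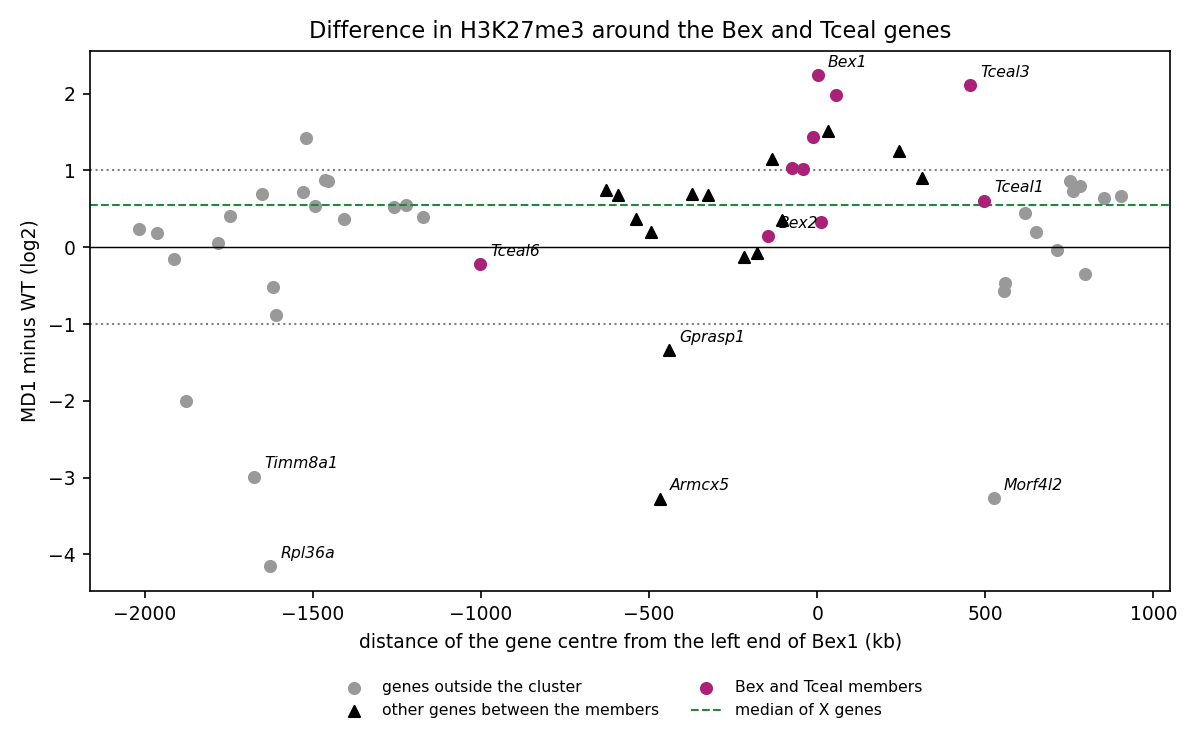
Difference in H3K27me3 (MD1 minus WT, log2, vertical axis) of each gene against the distance of its centre from the left end of Bex1 in kb; circles in colour are members, triangles the other genes between them and grey circles genes outside, with dotted lines at the 2-fold limits. The members other than Tceal6 lie together above 0, and Armcx5 (-3.27) and Morf4l2 (-3.27) lie far below them.

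The Armcx and Gprasp genes, which encode armadillo-repeat and receptor-sorting proteins, had a WT median close to that of the members and a smaller median difference. Over 9 genes the medians were 1.08 (WT), 1.91 (MD1) and 0.69 (difference), and 1 was at least 2-fold higher (Armcx4) and 2 at least 2-fold lower (Armcx5 and Gprasp1). No member was at least 2-fold lower. The Rhox genes, another X-linked cluster of paralogs, encode homeobox proteins of the reproductive tract. Of 30 listed, 12 had values. Their median was 1.27 in WT and 2.32 in MD1, and 7 of the 12 were at least 2-fold higher, led by Rhox2h (1.72) and Rhox2g (1.62). The Rhox values lay closer together, between 1.71 and 2.90 in MD1, whereas the Bex and Tceal values lay between 1.17 and 3.08. No test of these differences between clusters was possible.

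The X genes most like the members, by distance from the members' median point in the plane of the WT and MD1 values, were Slitrk4 (1.05 and 2.09), encoding a neuronal membrane protein, Asb9 (1.09 and 2.05), Trap1a (1.14 and 2.07), 4933400A11Rik (1.15 and 2.07) and Gm364 (0.98 and 2.09). The likeness rests on 2 values per gene.

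Genes of the pathways that the members are named after were described from 2 lists. The first list held 12 genes of TFIIS or sharing a domain with it, 11 of them with values, and Wbp5, the Tceal family gene inside the cluster that is described above. Without Wbp5 none of the 11 was at least 2-fold higher and 5 were at least 2-fold lower, and the median difference was -0.95. On a level-matched scale, which takes off the median difference of 500 autosomal genes closest in mean level within a length quartile, 0 of these 11 passed the limit in either direction, and the median was -0.13. TFIIS itself is encoded by Tcea1, which stood at -2.95 and -4.29, and by Tcea2 and Tcea3, which stood at -0.69 and 1.12 in WT and at -1.09 and 1.13 in MD1. Phf3 (-1.64), Med26 (-1.50) and Tceb3 (-1.27), autosomal genes with little of the mark in either genotype, stood at -0.42, -0.41 and -0.02 on the level-matched scale. Of autosomal genes, 20.4% were at least 2-fold lower.

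Of 21 genes around the p75 neurotrophin receptor, 8 were at least 2-fold lower and none passed the limit upwards. The median difference was -0.31. On the level-matched scale the median was -0.02 and 2 remained at least 2-fold lower, Irak1 (-3.77) and Maged1 (-1.97), whereas Prdm4 stood at -0.66 and Zfp110 at -0.37. On that scale 17.4% of X genes were at least 2-fold lower. The receptor gene Ngfr was strongly marked in both genotypes, at 2.15 and 2.42. The largest differences belonged to Irak1 (1.0 to -2.89), encoding a signalling kinase, Prdm4 (-2.04), encoding a zinc finger protein, Maged1 (1.11 to -0.91), encoding an adaptor of the receptor, and Zfp110 (-1.53). Irak1 and Maged1 are X-linked and started from WT values within the range of the members. The autosomal family gene Bex6 on chromosome 16 stood at 0.62 in WT, close to the 0.66 of Bex1, and at 0.70 in MD1, differing by 0.08.

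**Figure D5:**
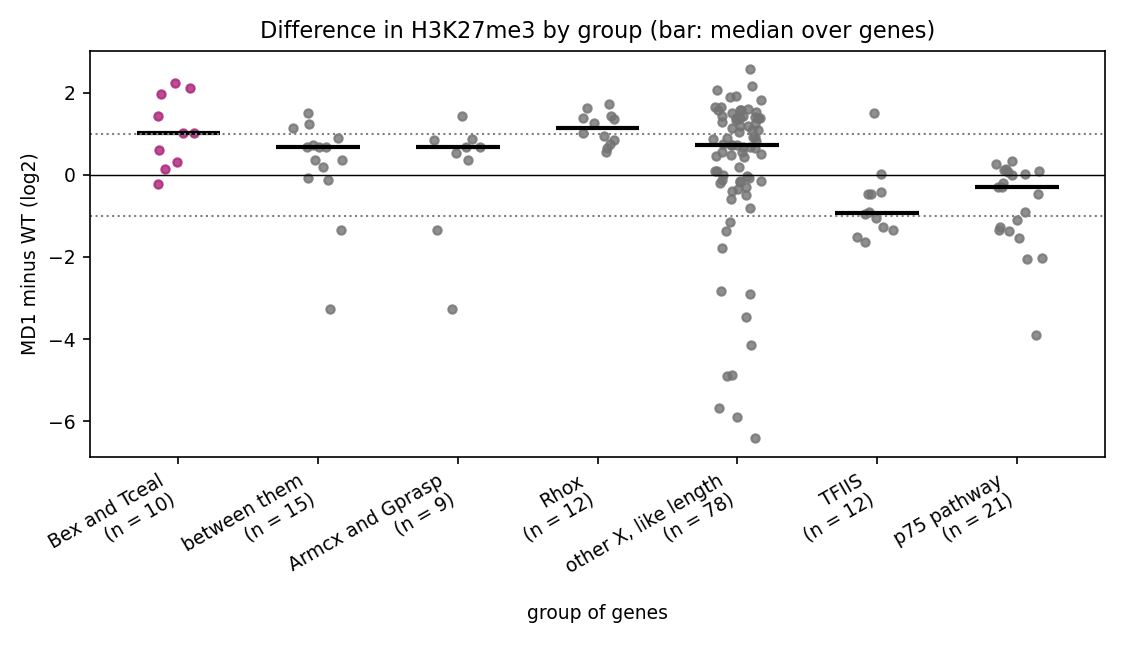
Difference in H3K27me3 (MD1 minus WT, log2, vertical axis) by group of genes, with 1 point per gene, a bar at the median over genes and dotted lines at the 2-fold limits. The medians were 1.02 for the Bex and Tceal members, 0.68 for the genes between them, 0.69 for Armcx and Gprasp, 1.14 for Rhox, 0.73 for other X genes of like length, -0.92 for the TFIIS list with Wbp5 and -0.31 for the p75 list.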

How the data were processed

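The authors deposited 1 table of log2 H3K27me3 enrichment per gene and genotype (mm9, per the submitters' processing notes). The log2 scale was read from the values, which run from -7.41 to 4.45. The aligner, how reads were counted and the denominator are not stated in the labels or headers. Depth is unknown, so no interval is given. Genes with values in both genotypes (20606) were compared by their MD1 minus WT difference, with a call at 2-fold. Starts in the table count from 0, judged from RefSeq gene lengths that 6 of 10 members match on that count, and are printed counted from 1. No member overlaps another listed gene. Level-matched differences subtract the median of 500 autosomal neighbours in mean level, taken within a length quartile. On simulated data, the plain differences and the constants of the genotypes were checked against what was put in. The level-matched differences were computed there but held to no limit. Read numbers in the simulation were assumed, so it does not show how genes with few reads behave. The members and lists were chosen with earlier results of these data known. The named genes were all members, all genes between them, the 3 lowest and 3 highest within 1 Mb, the 5 most alike X genes and up to 4 per list by absolute difference; others were picked after their values were seen. A few of the listed genes are not reported here. RefSeq promoters (GRCm38.p6) were matched by symbol or synonym for 10 of 10 members. Python 3.11.15, numpy 2.4.6 and pandas 2.3.3 were used.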

Additional observations from a re-analysis of the deposited data

How the results depend on the processing

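No member was at least 2-fold lower in MD1 under any setting tried, and the median difference of the members stayed positive throughout. The number of members at least 2-fold higher, 6, became 4 with a pseudocount of 1, 4 when matched on mean level, 4 of 7 without Tceal3, Tceal5 and Tceal6, and 3 at a limit of 3-fold. It became, under settings chosen after seeing the data, 3 when centred on the X median, 2 of the 3 members whose lowest terms were 10 or more, and 3 of 6 with the Bex family genes left out. The members' median difference of 1.02 became 0.70 with a pseudocount of 1, 1.30 centred on the autosomal median, 0.47 centred on the X median and 0.81 without the Bex family genes. For the other genes between the members, the median of 0.68 became 0.51 with a pseudocount of 1, 0.95 centred on the autosomal median, 0.55 matched on mean level, 0.13 centred on the X median and 0.25 as a mean, which Armcx5 and Gprasp1 lower. Medians within 0.1 of the main value, and counts within 1.5 times of it, counted as not moved. No paired analysis was possible because there was 1 library of each kind, and for the same reason no library could be left out.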

Other observations

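Outside the cluster, the word CACGTGA was also counted in the promoters of other X genes. For 42 genes with it the median difference was 0.24 (quartiles -0.79 and 0.72), with 7 (16.7%) at least 2-fold higher in MD1 and 9 (21.4%) at least 2-fold lower. For 544 X genes with a promoter entry but without the word it was 0.52, with 19.3% higher and 20.2% lower. Among the flanking genes, the placental homeobox gene Esx1 had 2.35 in WT and 3.02 in MD1, and of the members only Tceal3 (3.08) had a higher MD1 value. Cenpi, a flanking gene that encodes a centromere protein, went from 0.43 to -1.58.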
